A study of Caenorhabditis elegans with 14 samples.

Results

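The genes described here are the transthyretin-related genes of *C. elegans* that carry a *ttr* symbol and had a mean level of at least 1 FPKM over the 7 libraries. FPKM is a fragment count divided by library depth and by transcript length, here a shortened length as given below. It was summed over the transcripts of a gene. Of 58 genes with a *ttr* symbol among 41560 gene symbols, 48 passed and 10 did not. The libraries were made from whole animals of 2 strains, the *mir-60;spe-9* double mutant, which carries *mir-60*(*n4947*) and lacks an intestinal microRNA, and its *spe-9*(*hc88*) control. They are called *mir-60* mutants and *spe-9*. Both strains carry the temperature-sensitive *spe-9* allele, which makes animals sterile at 23.5 °C, the temperature used throughout, and both were fed *E. coli* OP50. Day 0 is the young adult, reached after 68 hours of growth and not yet treated, with 2 libraries from separate RNA preparations of each strain. Animals of Day 7 (1 library of each strain) and Day 10 (1 library of *mir-60* mutants) had been kept from Day 0 on 5 mM paraquat, a source of superoxide, and 325 µM FUDR, which blocks the growth of progeny. On paraquat, Day 7 was the median survival time of *spe-9* and Day 10 that of *mir-60* mutants. Age, paraquat and FUDR cannot be told apart in any comparison of days.

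Transthyretin-related proteins form a large nematode family of small proteins, most with a signal for secretion, that are related in sequence to vertebrate transthyretin, the carrier of thyroid hormone and of the retinol-binding protein in blood. For most members the ligand and the tissue of action are not known. The best studied are TTR-52, a secreted protein that bridges phosphatidylserine on the surface of dying cells and the engulfment receptor CED-1, TTR-11, which binds phosphatidylserine on injured axons, and TTR-33, which protects dopaminergic neurons from oxidative damage. *R09H10.3* and *ZK697.8*, which carry no *ttr* name, encode the related 5-hydroxyisourate hydrolase kind, enzymes of urate breakdown.

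Between 49400000 and 62300000 reads per library were estimated from the steps that whole reads leave in low FPKM values, and 94.7% to 96.5% of the values checked lay within 0.1 of a whole read. The same steps put the length used in the division at the coding length less about 214 bases. One read on a coding sequence of 432 bases, the median length of the 48 genes, was then worth between 0.074 and 0.093 FPKM. *mir-60* itself was listed at 0 in all 7 libraries, where polyadenylated RNA was sequenced, so the mutation could not be checked in these values. Of 8197 genes with a median of at least 10 FPKM, 261 were listed at exactly 0 in the *mir-60* mutant Day 7 library and 90 in the *mir-60* mutant Day 10 library, against 11 to 31 in each of the other libraries. Such a 0 can be a failed estimate, and it affected *ttr-20* and *ttr-33*. The summed level of 6 hypodermis markers was 73.7 to 111 FPKM at Day 7 and Day 10 and 1238 to 2115 FPKM at Day 0. Nearly all of the difference was *col-19*, an adult cuticle collagen gene. The hypodermal *lin-26* was at 57.2 to 90.3 FPKM throughout and *bli-1* near 0 throughout. *dpy-7* was at 0 to 0.0993 FPKM later and 1.98 to 15.6 FPKM at Day 0. *dpy-5* went the other way, at 8.61 to 12.1 FPKM later and 0.0861 to 0.441 FPKM at Day 0. The sum of 5 body wall muscle markers was 228 to 387 FPKM in the later libraries and 1389 to 1938 FPKM at Day 0. That of 7 intestine markers was 1633 to 1758 FPKM later and 2653 to 2832 FPKM at Day 0, and that of 8 oocyte and germ line markers was 649 to 1044 FPKM later and 1967 to 2620 FPKM at Day 0. Of the germ line markers, *glh-1* overlapped, at 87.1 to 123 FPKM later and 91.7 to 118 FPKM at Day 0. The other germ line markers were each lower in every later library. Most of the intestine sum was *cpl-1*, at 1549 to 1678 FPKM later and 2343 to 2551 FPKM at Day 0. *act-5* was at 13.6 to 23.97 FPKM later and 160 to 174 FPKM at Day 0. *pept-1* was at 0.523 to 2.15 FPKM later and 5.98 to 9.397 FPKM at Day 0. *ges-1*, *ifb-2* and *vha-6* were also lower in every later library, while the levels of *elt-2* overlapped. By contrast, 6 neuron markers summed to 1374 to 1628 FPKM later and to 976 to 1038 FPKM at Day 0. Most of that sum was *snb-1*, at 1223 to 1458 FPKM later and 851 to 890 FPKM at Day 0. *egl-3* was also higher later, at 53.5 to 68.3 FPKM against 34.8 to 45.3 FPKM. For *rab-3*, *unc-119*, *unc-64* and *ric-4* the later and Day 0 levels overlapped. The 4 pharynx markers found summed to 36.3 to 47.9 FPKM later and 38.7 to 58.5 FPKM at Day 0, and 7 sperm markers to 17.3 to 23.7 FPKM later and 17.9 to 71.2 FPKM at Day 0. The part of these shifts in the results on *ttr* genes was not tested, and in whole animals fewer cells of a type cannot be told apart from less RNA per cell.

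The 48 genes were spread over chromosomes V (17), X (12), IV (9), III (8) and II (2), in the annotation of the WS220 genome build. Their coding lengths ran from 393 bases (*ttr-15*) to 1221 bases (*ttr-14*), and 46 of them lay between 390 and 540 bases. Counting all 58 genes, 29 lay less than 5000 bases from another *ttr* gene, in 12 groups of 2 or 3 neighbours. Levels, which FPKM gives per unit of length, varied from a mean of 1.52 FPKM (*ttr-22*) to 5224 FPKM (*ttr-51*). The median over the 48 genes was 63.1 FPKM, compared with 19.96 FPKM over all genes of at least 1 FPKM. The shortened length raises the FPKM of short genes such as these more than that of long ones. Among the 48, 4 genes had a mean above 1000 FPKM, 18 a mean above 100 FPKM and 10 a mean under 10 FPKM.

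The 10 genes below the limit were *ttr-9*, *ttr-11*, *ttr-12*, *ttr-13*, *ttr-19*, *ttr-52*, *ttr-55*, *ttr-56*, *ttr-57* and *ttr-58*. *ttr-52*, the gene of the bridging protein, was just outside it, with a mean of 0.943 FPKM. Its levels were 0.165 FPKM in *mir-60* mutants and 0.369 FPKM in *spe-9* at Day 7, against 2.61 and 0.880 FPKM in *mir-60* mutants and 1.35 and 1.04 FPKM in *spe-9* at Day 0, and 0.190 FPKM at Day 10. These correspond to about 2 reads and 4 reads at Day 7, to between 9 and 25 reads at Day 0, and to 2 reads at Day 10, and the 2 *mir-60* mutant libraries of Day 0 lay on either side of both *spe-9* libraries. *ttr-11* reached at most 0.453 FPKM and was listed at 0 in 2 libraries, too few reads for any comparison. Just inside the limit were *ttr-22* (1.52 FPKM), *ttr-10* (1.77 FPKM) and *ttr-28* (1.91 FPKM). A gene could pass on the strength of 1 group of libraries alone, since the limit is on the mean over all 7.

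Most of the RNA of the family came from a few genes. The 4 most abundant, *ttr-51*, *ttr-2*, *ttr-15* and *ttr-45*, made up 75.1% of the mean FPKM of all 48. They were followed at some distance by *ttr-50* (440 FPKM), *ttr-6* (391 FPKM), *ttr-16* (381 FPKM) and *ttr-46* (211 FPKM). The summed FPKM of the 48 genes was 10025 and 9401 at Day 0, 23052 at Day 7 and 29082 at Day 10 in *mir-60* mutants. In *spe-9* it was 20467 at Day 7, against 9830 and 8750 at Day 0. The later libraries were therefore all above the Day 0 libraries, in both strains. As a share of all FPKM in a library, the sum was 1.0015% to 1.37% in the later libraries and 0.538% to 0.586% at Day 0. *ttr-51*, *ttr-2* and *ttr-45*, picked out after their values were seen, held most of the difference, with 69.0% to 74.3% of the sum in the later libraries and 31.1% to 36.1% of it at Day 0. Without them, the remaining 45 genes summed to 7154 (*mir-60* mutant Day 7), 7481 (*mir-60* mutant Day 10) and 6057 FPKM (*spe-9* Day 7), and to between 5589 and 6892 FPKM at Day 0.

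**Figure D1:**
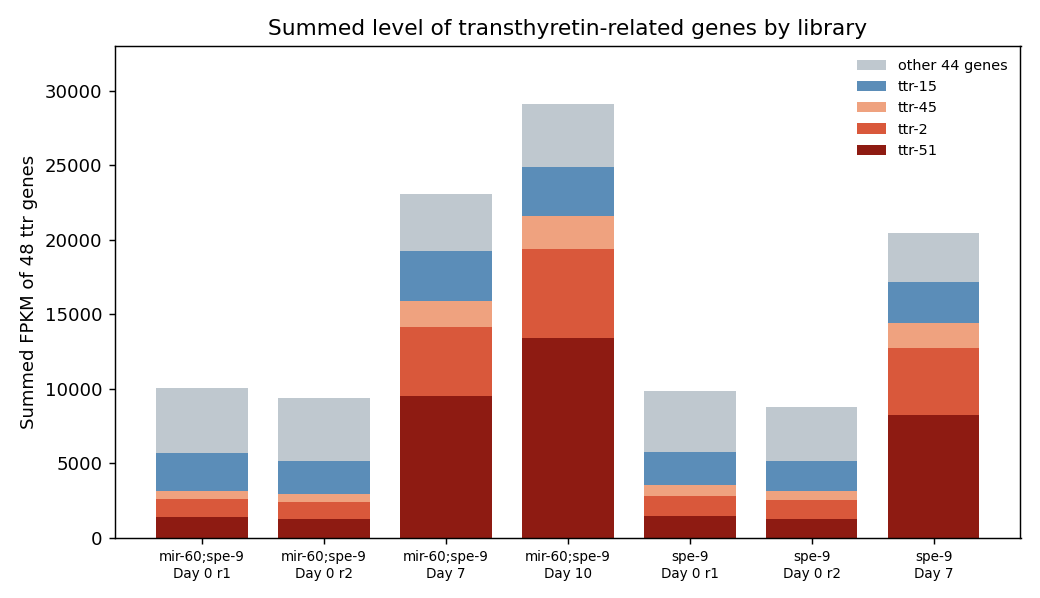
Summed FPKM of the 48 *ttr* genes (y axis) in each of the 7 libraries (x axis, with r1 and r2 the replicates of Day 0), split into the 4 most abundant genes and the other 44. The 3 later libraries reach 20467 to 29082 FPKM and the 4 Day 0 libraries 8750 to 10025 FPKM, and most of the difference is *ttr-51*, *ttr-2* and *ttr-45*.

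The first comparison asked which genes differed between *mir-60* mutants and *spe-9* at Day 0, before paraquat. No *ttr* gene passed the test in either direction. With limma on log2(FPKM + 0.5), 2 libraries against 2, none of the 48 genes was called at a Benjamini-Hochberg adjusted p under 0.05. Of all 13068 genes tested, 0.559% were higher by this rule and 0.184% were lower. The smallest adjusted p among the *ttr* genes was 0.146, for *ttr-21* (limma, 2 libraries against 2). Before adjustment, at p under 0.05, 7 *ttr* genes (14.6%) were higher and 1 (2.08%) lower in *mir-60* mutants, and over all genes these shares were 10.7% and 4.3%. The median fitted difference was 0.16 on the log2 scale over the *ttr* genes and 0.01 over all genes. It was 0.0548 without *mir-60* mutant replicate 1, 0.0537 without *spe-9* replicate 2, 0.251 without *spe-9* replicate 1 and 0.068 with median centring. Both *mir-60* mutant libraries lay above both *spe-9* libraries for 18 *ttr* genes and below both for 2, while the groups overlapped for the other 28. Over all genes tested, 27.1% lay above and 24.5% below. Summed markers also lay apart between the strains at Day 0, with 1938 and 1780 FPKM in *mir-60* mutants and 1484 and 1389 FPKM in *spe-9* for body wall muscle, 2115 and 1669 FPKM in *mir-60* mutants and 1483 and 1238 FPKM in *spe-9* for hypodermis, and 71.2 and 45.5 FPKM in *mir-60* mutants and 19.03 and 17.9 FPKM in *spe-9* for sperm. Most of the hypodermis sums was *col-19*, at 2025 and 1584 FPKM in *mir-60* mutants and 1402 and 1159 FPKM in *spe-9*. The hypodermal *lin-26* had 73.5 and 78.6 FPKM in *mir-60* mutants and 74.7 and 76.6 FPKM in *spe-9*. Neuron markers summed to 1038 and 1030 FPKM in *mir-60* mutants and 976 and 982 FPKM in *spe-9*. Pharynx markers summed to 58.5 and 47.0 FPKM in *mir-60* mutants and 44.8 and 38.7 FPKM in *spe-9*. The oocyte and germ line sums overlapped. The intestine sums went the other way, with 2753 and 2653 FPKM in *mir-60* mutants and 2822 and 2832 FPKM in *spe-9*. Most of them was *cpl-1*. Of the other intestine markers, *ges-1*, *elt-2*, *ifb-2*, *vha-6* and *pept-1* were each higher in both *mir-60* mutant libraries, and *act-5* overlapped. The part of these markers in the differences of *ttr* genes was not tested.

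The highest fitted differences belonged to genes of low level or of unequal replicates. *ttr-28* had 4.11 and 2.89 FPKM in *mir-60* mutants and 1.63 and 1.64 FPKM in *spe-9*, a log2 difference of 0.89 ± 0.24 (SE, adjusted p = 0.239 by limma). These levels rested on 48 and 36 reads against 22 and 21 reads. *ttr-22* had 3.20 and 2.75 FPKM in *mir-60* mutants and 1.66 and 1.5002 FPKM in *spe-9*, a log2 difference of 0.74 ± 0.21. The groups did not overlap for either gene, but neither difference passed the test. *ttr-33*, the gene of the neuroprotective protein, had 97.2 and 144 FPKM in *mir-60* mutants and 67.5 and 78.7 FPKM in *spe-9*, a log2 difference of 0.69 ± 0.22 (95% interval 0.08 to 1.31, adjusted p = 0.292 by limma). Its coding region on chromosome V lies within the span of *mig-6*, which encodes an extracellular matrix protein, over 661 bases, and how reads were divided between the 2 genes is not given in the sources used here.

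*ttr-32* had 59.6 and 123 FPKM in *mir-60* mutants and 47.3 and 57.3 FPKM in *spe-9*. *ttr-30* had 23.1 and 62.3 FPKM in *mir-60* mutants and 20.9 and 26.9 FPKM in *spe-9*. *ttr-8* had 42.0 and 71.8 FPKM in *mir-60* mutants and 33.3 and 35.9 FPKM in *spe-9*. For all 3 genes it was replicate 2 of *mir-60* mutants that stood high. That library exceeded replicate 1 of the same strain by more than 1.5-fold for 7 *ttr* genes. The ratios ran from 1.71-fold (*ttr-8*) to 3.18-fold (*ttr-38*), the others being *ttr-7*, *ttr-18*, *ttr-30*, *ttr-32* and *ttr-59*. The share of all genes past 1.5-fold was not taken, so the count does not set *ttr* genes apart. In *spe-9* the ratio of replicate 2 to replicate 1 for these 7 genes was between 1.08 and 1.37. Without replicate 2 of *mir-60* mutants, the log2 difference of *ttr-30* was -0.04, compared with 0.67 ± 0.52 (SE) with it.

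Smaller but more even differences were seen for *ttr-21*, *ttr-26* and *ttr-45*. *ttr-21* had 68.9 and 62.0 FPKM in *mir-60* mutants and 49.7 and 47.0 FPKM in *spe-9*, a log2 difference of 0.43 ± 0.08. *ttr-26* had 117 and 143 FPKM in *mir-60* mutants and 81.4 and 92.5 FPKM in *spe-9*, a log2 difference of 0.58 ± 0.13. At the other end, the abundant *ttr-45* had 561 and 541 FPKM in *mir-60* mutants and 701 and 651 FPKM in *spe-9*, a log2 difference of -0.29 ± 0.07 (adjusted p = 0.195 by limma, as for *ttr-26* with 0.192). The groups did not overlap for these 3 genes. *ttr-2* had 1158 and 1118 FPKM in *mir-60* mutants and 1357 and 1232 FPKM in *spe-9*, also without overlap, with a log2 difference of -0.18 ± 0.08. *ttr-42*, *ttr-10*, *ttr-49* and *ttr-37*, the next lowest, had log2 differences of -0.26, -0.10, -0.09 and -0.08, each smaller than 1.5 times its standard error. For *ttr-51*, the most abundant gene, the log2 difference was -0.03 with a 95% interval of -0.33 to 0.27, which leaves room for a small difference in either direction. *ttr-52* also entered this fit, with a log2 difference of 0.29 ± 0.50.

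**Figure D2:**
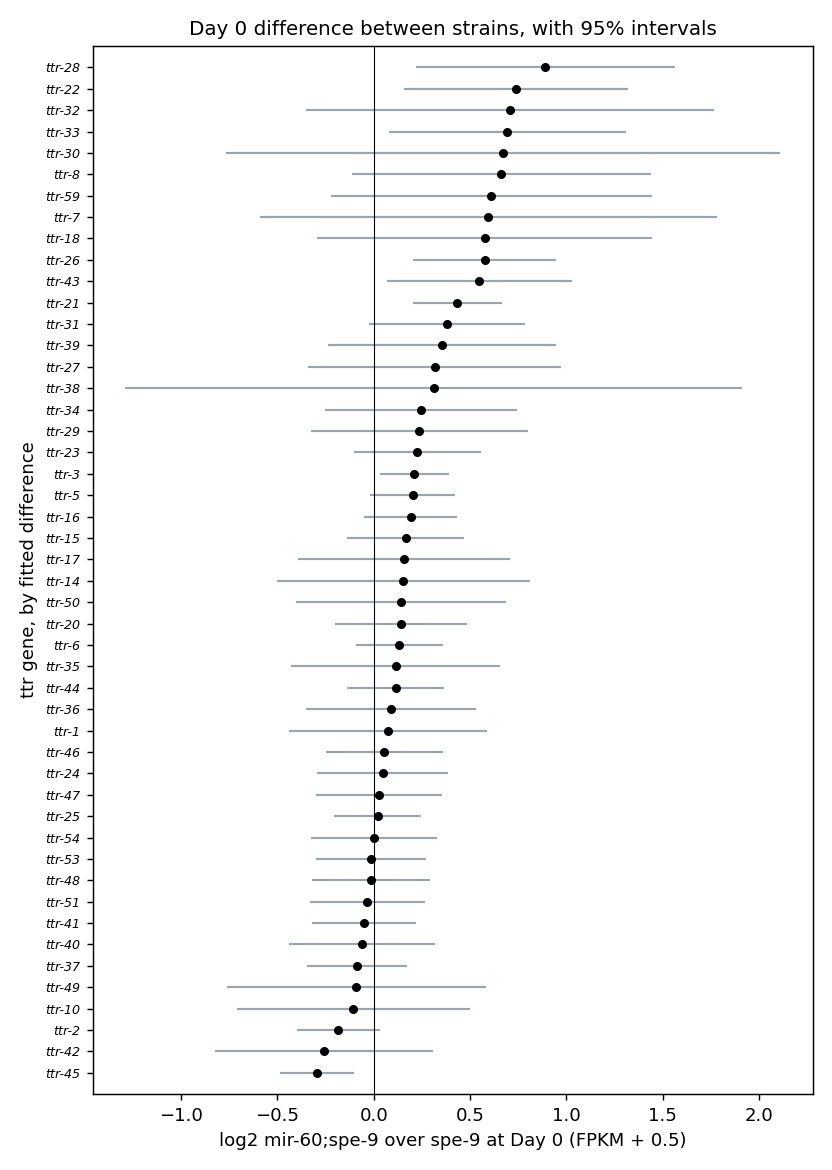
Fitted log2 difference of *mir-60* mutants over *spe-9* at Day 0 (x axis) for each of the 48 *ttr* genes (y axis), with 95% intervals from limma as lines, 2 libraries per strain. The values run from -0.29 (*ttr-45*) to 0.89 (*ttr-28*), and none passed the adjusted threshold.

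The next comparison asked how levels at Day 7 on paraquat differed from those at Day 0, in a fit over 6 libraries with strain as a term. Of the 48 genes, 15 rose and 17 fell at an adjusted p under 0.05 by limma, and 16 did not pass. As shares, 31.2% rose and 35.4% fell, while of all 13706 genes tested 33.7% rose and 27.2% fell, so the number of *ttr* genes that changed was near that of genes at large. The median fitted change was -0.17 on the log2 scale over the *ttr* genes and 0.07 over all genes, but it was 0.094 without the *mir-60* mutant Day 7 library and -0.0256 without *ttr-20* and *ttr-33*. More than 2-fold changes were seen for 7 of the genes that rose (14.6% of the 48) and 12 of those that fell (25%), and over all genes these shares were 17.7% and 10.5%. Both Day 7 libraries lay above all 4 Day 0 libraries for 15 *ttr* genes and below all 4 for 17, and over all genes these shares were 36.8% and 30.8%. The change had the same sign in both strains for 41 of the 48 genes. The share over all genes was not taken, so this count does not set the *ttr* genes apart.

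**Figure D3:**
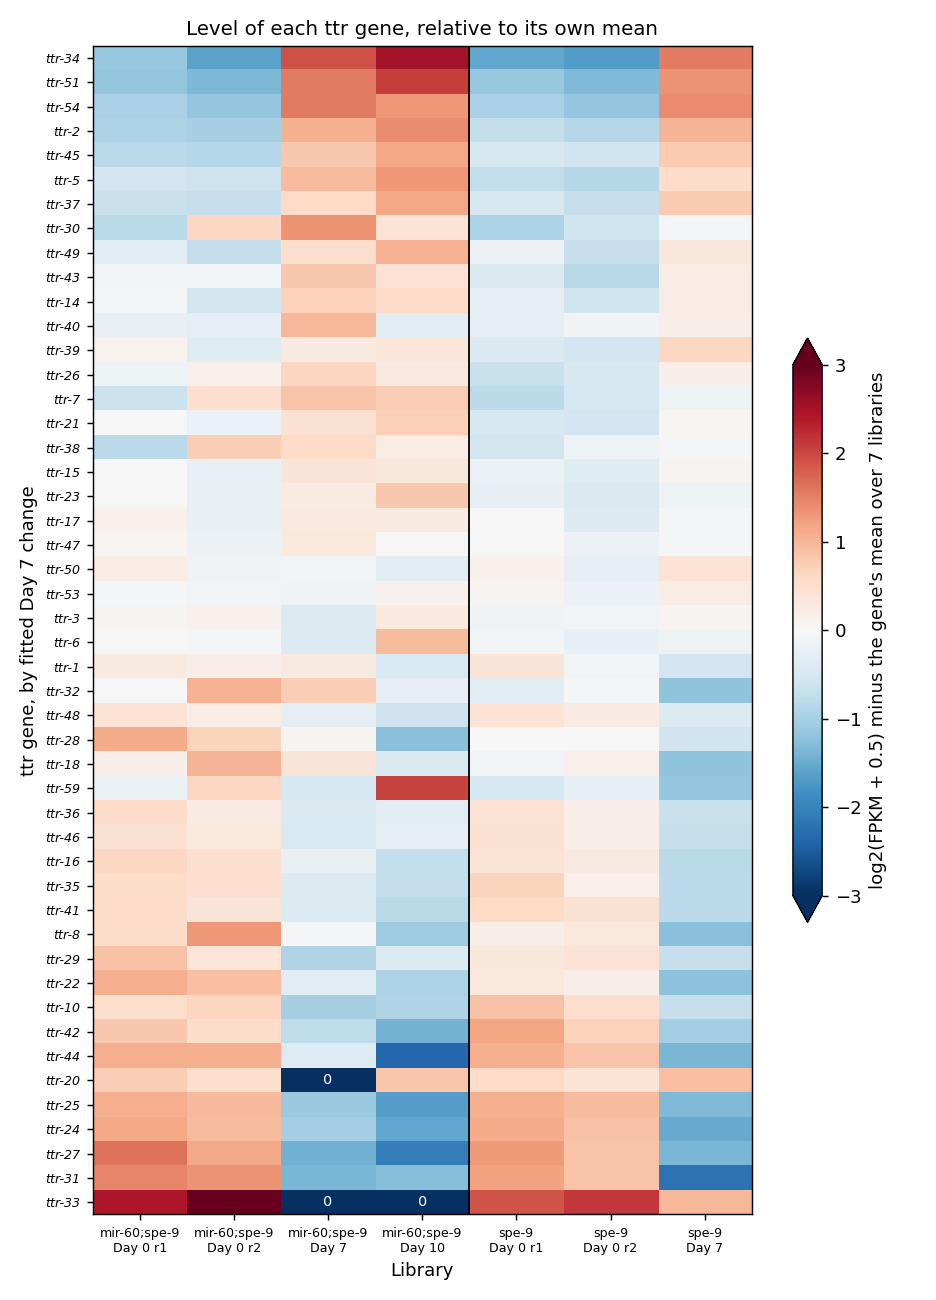
Level of each of the 48 *ttr* genes (rows, ordered by the fitted Day 7 change) in the 7 libraries (columns, *mir-60* mutants left of the line and *spe-9* right of it), as log2(FPKM + 0.5) minus the gene's mean over the libraries. Red is above and blue below that mean, and a white 0 marks a value listed at exactly 0. Most genes of the upper and lower blocks changed between Day 0 and the later days in both strains. *ttr-33* and *ttr-20*, in the lower block, were not called, and their places rest on values listed at 0.

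The largest rise was that of *ttr-34*. It had 295 FPKM in *mir-60* mutants and 232 FPKM in *spe-9* at Day 7, against 35.3 and 25.5 FPKM in *mir-60* mutants and 26.2 and 24.3 FPKM in *spe-9* at Day 0. The fitted change was 3.22 ± 0.14 on the log2 scale, or 9.34-fold (adjusted p = 0.000287 by limma). *ttr-51* had 9504 FPKM in *mir-60* mutants and 8215 FPKM in *spe-9* at Day 7, against 1413 and 1261 FPKM in *mir-60* mutants and 1462 and 1278 FPKM in *spe-9* at Day 0. Its change was 2.71 ± 0.10, or 6.54-fold. At Day 0 it was second to *ttr-15*, and at Day 7 it was the most abundant *ttr* gene in both strains. *ttr-54* had 207 FPKM in *mir-60* mutants and 189.9 FPKM in *spe-9* at Day 7, against 35.7 and 30.9 FPKM in *mir-60* mutants and 35.6 and 30.9 FPKM in *spe-9* at Day 0, a change of 2.56 ± 0.10, or 5.90-fold. For these 3 genes the 2 strains were close at both days, and every Day 7 value was more than 5 times every Day 0 value.

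Next came *ttr-2*, with 4667 FPKM in *mir-60* mutants and 4488 FPKM in *spe-9* at Day 7, a rise of 3.77-fold over the Day 0 levels given above. *ttr-45* had 1728 FPKM in *mir-60* mutants and 1706 FPKM in *spe-9* at Day 7 and rose 2.81-fold. The differences between strains seen for these 2 genes at Day 0 were therefore small at Day 7, with log2 ratios of *mir-60* mutants over *spe-9* of 0.06 and 0.02. *ttr-5* had 71.0 FPKM in *mir-60* mutants and 53.3 FPKM in *spe-9* at Day 7, against 24.5 and 23.5 FPKM in *mir-60* mutants and 21.6 and 20.03 FPKM in *spe-9* at Day 0, a rise of 2.71-fold. *ttr-37* had 136 FPKM in *mir-60* mutants and 155 FPKM in *spe-9* at Day 7, against 56.7 and 55.4 FPKM in *mir-60* mutants and 63.9 and 55.3 FPKM in *spe-9* at Day 0, a rise of 2.50-fold. No Day 7 value of these genes overlapped a Day 0 value.

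The other 8 genes that rose did so by less than 2-fold: *ttr-49*, *ttr-43*, *ttr-14*, *ttr-40*, *ttr-39*, *ttr-26*, *ttr-21* and *ttr-15*, with log2 changes between 0.43 (*ttr-15*) and 0.91 (*ttr-49*). *ttr-15*, the most abundant gene at Day 0, had 3373 FPKM in *mir-60* mutants and 2721 FPKM in *spe-9* at Day 7, against 2553 and 2223 FPKM in *mir-60* mutants and 2248 and 2007 FPKM in *spe-9* at Day 0. Within each strain its Day 7 library was the highest, but the *spe-9* value at Day 7 was only slightly above the highest Day 0 value of *mir-60* mutants. Of these 8 calls, only those of *ttr-43* and *ttr-21* held when each library was left out in turn. Without the *mir-60* mutant Day 7 library, *ttr-14* (0.67), *ttr-15* (0.36), *ttr-40* (0.37) and *ttr-49* (0.76) no longer passed, and without the *spe-9* Day 7 library *ttr-14* (0.97), *ttr-15* (0.50), *ttr-26* (0.65), *ttr-39* (0.40) and *ttr-49* (1.06) did not. The calls of *ttr-14*, *ttr-39* and *ttr-40* were also lost without 1 or more Day 0 libraries, with log2 changes of 0.69 to 0.84: *ttr-14* without *spe-9* replicate 2, *ttr-39* without *mir-60* mutant replicate 2 or either *spe-9* replicate, and *ttr-40* without either *mir-60* mutant replicate or *spe-9* replicate 1.

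**Figure D4:**
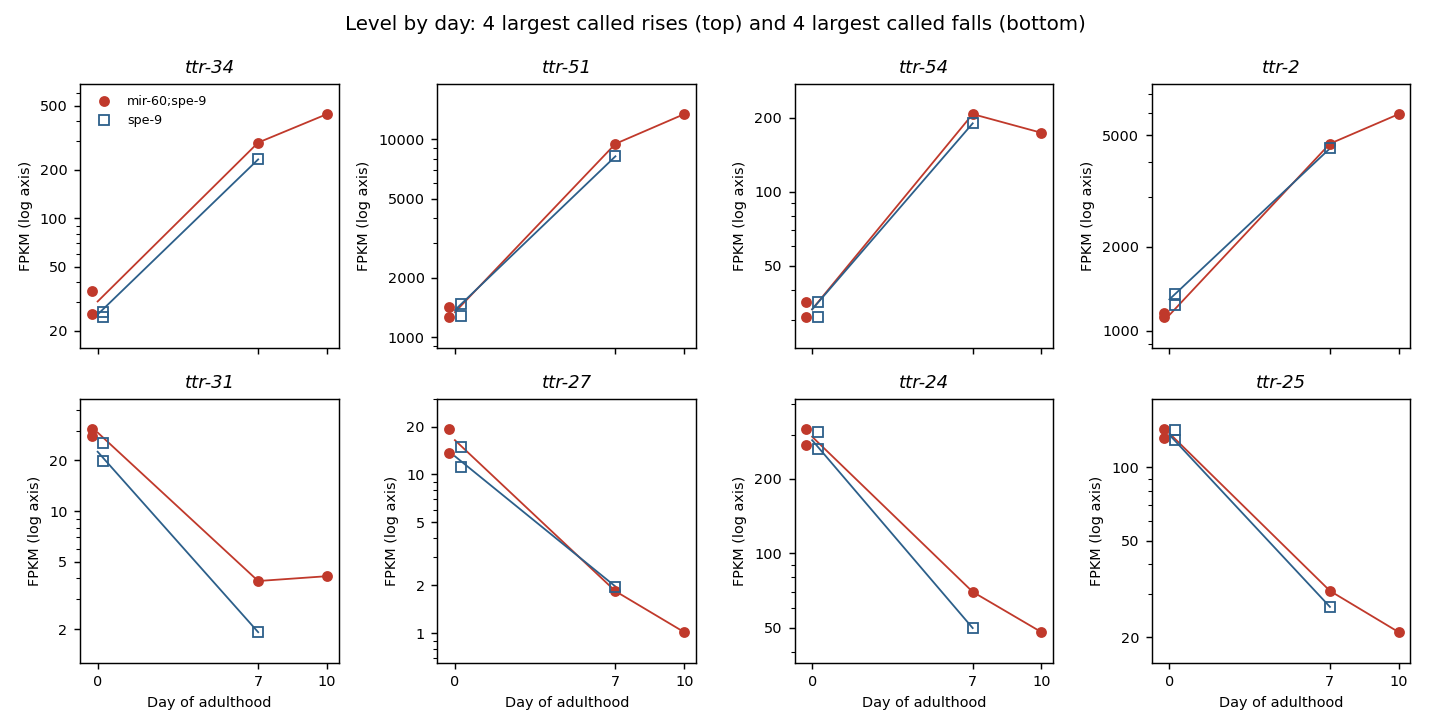
FPKM (y axis, log scale, own range in each panel) by day of adulthood (x axis) for the 4 *ttr* genes with the largest called rises (top) and falls (bottom). Each point is 1 library, filled circles *mir-60* mutants and open squares *spe-9*, the lines join the means of a strain, and in every panel all Day 7 points lie on 1 side of all Day 0 points.

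The largest fall that passed the test was that of *ttr-31*. It had 3.86 FPKM in *mir-60* mutants and 1.92 FPKM in *spe-9* at Day 7, against 30.6 and 27.8 FPKM in *mir-60* mutants and 25.2 and 19.8 FPKM in *spe-9* at Day 0. The fitted change was -3.004 ± 0.17 on the log2 scale, that is 8.02-fold lower (adjusted p = 0.000433 by limma). *ttr-27* had 1.84 FPKM in *mir-60* mutants and 1.97 FPKM in *spe-9* at Day 7, against 19.3 and 13.6 FPKM in *mir-60* mutants and 14.9 and 11.2 FPKM in *spe-9* at Day 0, a change of -2.64 ± 0.22. These Day 7 levels rested on 56 and 25 reads for *ttr-31*, and on 25 and 24 reads for *ttr-27*.

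*ttr-24* and *ttr-25*, which lie side by side on chromosome V, fell by a like amount. *ttr-24* had 69.8 FPKM in *mir-60* mutants and 49.8 FPKM in *spe-9* at Day 7, against 318 and 274 FPKM in *mir-60* mutants and 309 and 264 FPKM in *spe-9* at Day 0, a change of -2.29 ± 0.14. *ttr-25* had 31.04 FPKM in *mir-60* mutants and 26.7 FPKM in *spe-9* at Day 7, against 144 and 132 FPKM in *mir-60* mutants and 142.2 and 130.2 FPKM in *spe-9* at Day 0, a change of -2.23 ± 0.08. *ttr-44* had 47.0 FPKM in *mir-60* mutants and 23.3 FPKM in *spe-9* at Day 7, against 130.4 and 130.3 FPKM in *mir-60* mutants and 129 and 112 FPKM in *spe-9* at Day 0, a change of -1.90 ± 0.22. *ttr-42* had 44.3 FPKM in *mir-60* mutants and 37.0 FPKM in *spe-9* at Day 7, against 133 and 111 FPKM in *mir-60* mutants and 173 and 122 FPKM in *spe-9* at Day 0, a change of -1.70 ± 0.20. In each of these genes the lowest Day 0 value was more than 2 times the highest Day 7 value.

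Falls of more than 2-fold were also found for *ttr-10*, *ttr-22*, *ttr-29*, *ttr-8*, *ttr-41* and *ttr-35*. Of these, *ttr-41* was the most abundant, with 113 FPKM in *mir-60* mutants and 87.8 FPKM in *spe-9* at Day 7, against 226 and 197 FPKM in *mir-60* mutants and 228 and 209.7 FPKM in *spe-9* at Day 0. *ttr-10* and *ttr-22* were at or under 0.871 FPKM at Day 7, which is 3 to 12 reads, so that their log2 changes of -1.48 and -1.41 on the FPKM + 0.5 scale understate the ratio. *ttr-16*, *ttr-46*, *ttr-36*, *ttr-28* and *ttr-48* fell by less than 2-fold, with log2 changes between -0.97 (*ttr-16*) and -0.66 (*ttr-48*). *ttr-16*, the most abundant gene that fell, had 304 FPKM in *mir-60* mutants and 203 FPKM in *spe-9* at Day 7, against 544 and 495 FPKM in *mir-60* mutants and 476 and 433 FPKM in *spe-9* at Day 0. The calls of *ttr-8* (-0.99) and *ttr-35* (-0.94) were lost without the *spe-9* Day 7 library. That of *ttr-28* was lost without any 1 of the 6 libraries except *mir-60* mutant Day 0 replicate 2, with log2 changes of -0.80 to -0.59.

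The 16 genes that did not pass include some whose levels were nearly level across days, of which *ttr-53* and *ttr-47* were chosen after their values were seen. *ttr-53* had 173 FPKM in *mir-60* mutants and 223 FPKM in *spe-9* at Day 7, against 185 and 178 FPKM in *mir-60* mutants and 199.1 and 168 FPKM in *spe-9* at Day 0, a log2 change of 0.11 with a 95% interval of -0.20 to 0.41. *ttr-47* had 260 FPKM in *mir-60* mutants and 202 FPKM in *spe-9* at Day 7, against 217 and 185 FPKM in *mir-60* mutants and 209 and 185 FPKM in *spe-9* at Day 0, a log2 change of 0.21 with an interval of -0.12 to 0.53. For both genes the Day 7 values lay among or close to the Day 0 values, and the intervals leave room for changes of up to about 0.5 on the log2 scale. *ttr-50* and *ttr-6*, next in abundance after the 4 leading genes, had log2 changes of 0.17 ± 0.22 and -0.18 ± 0.11.

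The fitted changes of *ttr-33* and *ttr-20* were among the 6 lowest, and both rest on values listed at 0. *ttr-33* was listed at 0 in *mir-60* mutants at Day 7 and Day 10 and had 36.0 FPKM in *spe-9* at Day 7, below all 4 Day 0 values given above. Its fitted Day 7 change of -4.45 had an adjusted p of 0.068 (limma, 6 libraries). *mig-6*, *C37C3.7* and *C37C3.12*, which overlap or adjoin it, were also at 0 in both *mir-60* mutant libraries of Day 7 and Day 10, and *mig-6* had 8.92 FPKM in *spe-9* at Day 7 and 41.8 to 61.1 FPKM at Day 0. With exact zeros of expressed genes set to missing, an alternative chosen after seeing the data, the change of *ttr-33* came from *spe-9* alone at Day 7 and was -1.01 (adjusted p = 0.0355 by limma). The same estimate, with the *mir-60* mutant Day 7 library left out for every gene, did not pass (adjusted p = 0.0653 by limma). *ttr-20* was listed at 0 in *mir-60* mutants at Day 7, and had 14.7 FPKM in *spe-9* at Day 7, 12.9 and 11.2 FPKM in *mir-60* mutants and 11.5 and 10.2 FPKM in *spe-9* at Day 0, and 14.0 FPKM in *mir-60* mutants at Day 10. Its neighbour *ama-1*, which encodes the large subunit of RNA polymerase II, was listed at 0 in the same library and at 67.4 to 77.5 FPKM in the other 6. Zeros were thus listed for neighbouring genes and not for the *ttr* genes alone.

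Neighbouring *ttr* genes did not always change together. On chromosome IV, *ttr-51* (13250695 to 13252287) and *ttr-45* (13254213 to 13255270) both rose, while *ttr-54* (10156183 to 10156714) rose and *ttr-53* (10158041 to 10158712) did not pass. On chromosome III, *ttr-2* (9927681 to 9928867) rose, and *ttr-3* and *ttr-1* on either side had log2 changes of -0.16 ± 0.17 and -0.34 ± 0.24. On chromosome V, *ttr-24* and *ttr-25* fell and *ttr-26*, the next gene, rose, with 203 FPKM in *mir-60* mutants and 149.6 FPKM in *spe-9* at Day 7. *ttr-27*, *ttr-28* and *ttr-29*, side by side on chromosome V, all fell, as did *ttr-35* and *ttr-36* on chromosome X, while *ttr-40* and *ttr-49* on chromosome V both rose. *ttr-16* fell and its neighbour *ttr-17* on chromosome IV had a log2 change of 0.25 ± 0.17.

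Whether the Day 7 change differed between the strains was tested as an interaction over all 7 libraries, on the assumption that the lone later libraries vary like those of Day 0. Of the 48 genes, limma called 2 lower and 0 higher, where 3.25% of all genes were called lower and 0.822% higher. Before adjustment, 3 *ttr* genes were lower and 2 higher at p under 0.05, together 10.4%, and over all genes the share was 14.8%. The 2 called genes were *ttr-20* and *ttr-33*, the genes listed at 0 in the *mir-60* mutant Day 7 library. With those zeros set to missing, the interaction could not be fitted for these 2 genes, and none of the other 46 was called in either fit. Among the rest, the lowest adjusted p was 0.061 for *ttr-3* (limma), with 25.1 FPKM in *mir-60* mutants and 35.3 FPKM in *spe-9* at Day 7, against 35.4 and 36.4 FPKM in *mir-60* mutants and 30.6 and 31.2 FPKM in *spe-9* at Day 0.

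**Figure D5:**
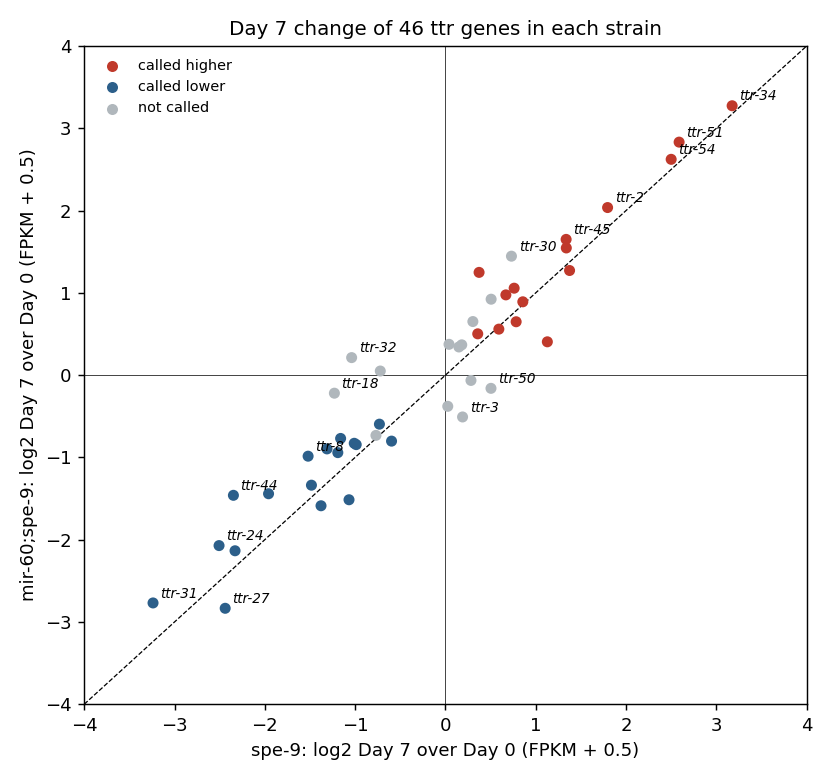
Log2 change from Day 0 to Day 7 in *mir-60* mutants (y axis) and in *spe-9* (x axis) for 46 *ttr* genes, without *ttr-20* and *ttr-33*, which were listed at 0 at Day 7. Red and blue points were called higher and lower in the fit of both strains, grey points were not called, the dashed line marks equal change, and *ttr-32* and *ttr-18* lie farthest above it.

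With 1 library of each strain at Day 7, the strains were compared there by ratio, without a test. Of the 48 genes, 6 (12.5%) were more than 2-fold higher and 2 (4.17%) more than 2-fold lower in *mir-60* mutants, and over all 13745 genes of at least 1 FPKM these shares were 4.02% and 5.57%. The 2 lower genes were *ttr-33* and *ttr-20*. The highest ratios were those of *ttr-32*, with 99.1 FPKM in *mir-60* mutants and 25.1 FPKM in *spe-9*, and *ttr-18*, with 155 FPKM in *mir-60* mutants and 51.3 FPKM in *spe-9*. They were followed by *ttr-30*, with 104 FPKM in *mir-60* mutants and 39.6 FPKM in *spe-9*, and *ttr-8*, with 27.5 FPKM in *mir-60* mutants and 11.7 FPKM in *spe-9*. On the log2 scale these ratios were 1.96, 1.59, 1.39 and 1.196. These 4 genes are among the 7 that stood high in replicate 2 of *mir-60* mutants at Day 0, so that their levels varied between 2 libraries of 1 strain and day by 1.71-fold to 2.70-fold. *ttr-50* had 406 FPKM in *mir-60* mutants and 583 FPKM in *spe-9* at Day 7, which with *ttr-3* was the lowest ratio among genes not listed at 0, at -0.52 on the log2 scale.

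In *mir-60* mutants, Day 10 was compared with Day 7 in the same way. Of the 48 genes, 3 were more than 2-fold higher and 4 more than 2-fold lower at Day 10, and over all genes 4.53% were higher and 5.35% lower. The median log2 ratio was -0.10 over the *ttr* genes and -0.20 over all genes. Of the 4 most abundant genes, all called higher at Day 7, 3 were higher at Day 10 than at Day 7, and *ttr-15* was at 3293 FPKM at Day 10 and 3373 FPKM at Day 7. *ttr-51* was at 13433 FPKM at Day 10 and 9504 FPKM at Day 7, *ttr-2* at 5955 and 4667 FPKM, *ttr-45* at 2214 and 1728 FPKM, and *ttr-34* at 443 and 295 FPKM. *ttr-54* was at 174 FPKM at Day 10 and 207 FPKM at Day 7. Of the genes that had fallen, *ttr-44* had 11.6 FPKM at Day 10 and 47.0 FPKM at Day 7, the lowest ratio of all, at -1.98 on the log2 scale. *ttr-28* and *ttr-8* were also lower at Day 10, with log2 ratios of -1.35 and -1.01. *ttr-40*, which had been called higher at Day 7, had 4.15 FPKM at Day 10 and 11.4 FPKM at Day 7, a log2 ratio of -1.35. Its Day 0 levels in *mir-60* mutants were 4.55 and 4.45 FPKM. *ttr-6*, which did not pass the test at Day 7, had 722 FPKM at Day 10 and 281 FPKM at Day 7, and lay between 314 and 373 FPKM at Day 0. *ttr-20*, counted as higher at Day 10, was listed at 0 at Day 7. *ttr-59* had 234.96 FPKM at Day 10 and 40.1 FPKM at Day 7, but a transcript of 105 bases, at 0 in every other library, held 200.5 FPKM of the Day 10 value. The gene's longer transcript was at 34.4 FPKM at Day 10 and 40.1 FPKM at Day 7.

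A list of 13 engulfment genes, of the CED-1 pathway in which TTR-52 acts and of the parallel pathway to CED-10, was measured beside the *ttr* genes. At Day 0 none of the 13 was called by limma, with 1 at an unadjusted p under 0.05. At Day 7, 2 of the 13 (15.4%) rose and 7 (53.8%) fell, where 33.7% of all genes rose and 27.2% fell, with a median log2 change of -0.54, compared with 0.07 over all genes. *nrf-5*, which encodes a secreted lipid-binding protein that acts with TTR-52, rose, with 53.7 FPKM in *mir-60* mutants and 49.2 FPKM in *spe-9* at Day 7, against 33.5 and 31.3 FPKM in *mir-60* mutants and 26.7 and 26.6 FPKM in *spe-9* at Day 0. *ced-2*, an adaptor of the parallel engulfment pathway, also rose. *ced-1*, the receptor that TTR-52 binds, fell, with 68.9 FPKM in *mir-60* mutants and 52.1 FPKM in *spe-9* at Day 7, against 123 and 157 FPKM in *mir-60* mutants and 79.4 and 113 FPKM in *spe-9* at Day 0. Much of this was a transcript of 150 coding bases, and those of at least 200 bases summed to 44.1 FPKM in *mir-60* mutants and 36.3 FPKM in *spe-9* at Day 7, against 47.7 and 56.5 FPKM in *mir-60* mutants and 44.9 and 52.04 FPKM in *spe-9* at Day 0. The adaptor gene *ced-6*, the transporter gene *ced-7*, the dynamin gene *dyn-1*, *ced-5* and *ced-12*, which act upstream of the Rac GTPase CED-10, and the flippase gene *tat-1* fell as well, by 0.24 to 1.02 on the log2 scale. *psr-1*, *ina-1* and *pat-3* did not pass, with log2 changes between -0.23 and 0.02, and *ced-10* was listed at 0 in *mir-60* mutants at Day 7. Of the hydrolase kind, *R09H10.3* fell, with 26.7 FPKM in *mir-60* mutants and 30.3 FPKM in *spe-9* at Day 7, against 141 and 112 FPKM in *mir-60* mutants and 114 and 86.6 FPKM in *spe-9* at Day 0. *ZK697.8* reached at most 0.187 FPKM and was not tested.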

How the data were processed

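Polyadenylated RNA of whole animals was sequenced in single-end reads of 100 bases, and 2 sequencing runs of each library were merged by the authors, so that 7 libraries are compared. The deposited values are FPKM per RefSeq transcript, which the authors made with TopHat2 2.1.0, Bowtie2 2.1.0 and Cufflinks 2.2.1 on WS220. The library kit marks strand, but whether Cufflinks used it is not given in the sources used here. The FPKM were summed per gene, and log2(FPKM + 0.5) was fitted with limma 3.58.1 in R 4.3.3 (lmFit, eBayes with a variance trend, two-sided, Benjamini-Hochberg adjustment over all genes tested, called at an adjusted p under 0.05). No further scaling was applied. Genes needed a mean of at least 1 FPKM, over the 4 Day 0 libraries for the comparison at Day 0 and over all 7 libraries otherwise, and a value above 0 in a library of the fit. The steps were tested on simulated data. P-values rest on the spread between Day 0 libraries of a strain. Those of the Day 7 change rest also on how that change differed between the strains. With 1 library per strain at Day 7, no p-value measures the spread between Day 7 libraries of a strain. The length column held coding length (97.8% of mRNA records were multiples of 3). Exact zeros in low genes and depth limit the values of genes with few reads, since counting error alone is then large.

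Named are the genes called in a fit, the 8 most abundant, the 6 highest and 6 lowest fitted changes, the 4 highest and 4 lowest ratios between single libraries, *ttr-52*, *ttr-33*, *ttr-11* and the genes next to the limit of 1 FPKM. Other genes were named after their values were seen. The members, the lists of engulfment genes, hydrolase genes and markers, and the tests were chosen with earlier results of these data known. Coordinates are those of the deposited values, on WS220, and no sequences are shown. Alternatives covered the pseudocount (0.1 and 1), the filter (none and at least 10 FPKM), median centring, quantile normalization, the transcript with the highest mean FPKM, no variance trend, genes of at least 200 bases, the replicate number as a block, Day 7 and Day 10 together, each strain's contrast from a fit of all 7 libraries, and each library left out in turn. Setting exact zeros to missing and leaving out *ttr-20* and *ttr-33* were added after the values were seen.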

Additional observations from a re-analysis of the deposited data

Results flagged for a closer look

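The change between Day 7 and Day 0 differed between the strains for *ttr-20* and *ttr-33* by the interaction test (limma over all 7 libraries, adjusted p = 0.00604 and 0.0153). As *mir-60* mutants minus *spe-9*, the difference in log2 change was -5.06 for *ttr-20* and -6.88 for *ttr-33*. Both genes were listed at 0 in the *mir-60* mutant Day 7 library, as were genes next to each, and with those zeros set to missing the difference could not be fitted for either.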

How the results depend on the processing

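At Day 0, no *ttr* gene was called under 15 of the 16 alternatives run, 4 of which, each leaving out a library, called no gene at all, but the replicate block together with genes of at least 200 bases called 6 higher (*ttr-21*, *ttr-22*, *ttr-26*, *ttr-28*, *ttr-31*, *ttr-33*) and 1 lower (*ttr-45*). That is 14.6% of the 48, and in the same fit 14.1% of 12192 genes were called. The block alone called 0 higher and 0 lower. The labels do not say that a replicate number marks a shared preparation, and deviations of same-numbered libraries had a correlation of 0.076 over all genes tested and 0.347 with the shorter genes left out, and of 0.748 over the 48 *ttr* genes. The median log2 difference at Day 0 was 0.068 with median centring and 0.0537 to 0.25 with each library left out. Signs changed at Day 0 for genes that were not called: *ttr-52* (-0.0581 with quantile normalization, and -0.29 to 0.88 with each library left out), *ttr-49* (-0.35 to 0.17), *ttr-30* (-0.036 to 1.38), *ttr-10* (-0.28 to 0.0696) and *ttr-37* (-0.19 to 0.018). At Day 7, calls numbered 10 to 15 higher and 13 to 19 lower under all alternatives, and 10 to 15 and 16 to 18 with each library left out. Of the 32 calls, 23 held without each library in turn and 20 under every alternative that tested the gene. The median log2 change at Day 7 was 0.0245 with Day 7 and Day 10 together, 0.094 in the contrast of *spe-9* from the fit of 7 libraries, -0.0256 with zeros set to missing or without *ttr-20* and *ttr-33*, and -0.22 to 0.094 with each library left out. *ttr-20* turned to 0.42 in that contrast of *spe-9* and with zeros set to missing, and ran from -4.64 to 0.42 with each library left out. With zeros set to missing, the interaction was tested for 46 *ttr* genes, without *ttr-20* and *ttr-33*, and 0 were called. The 1 library per strain and later day, and the reads of genes near 1 FPKM, limit these comparisons.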
